A study of Mus musculus with 30 samples.

Results

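Wild-type testis was set against wild-type liver, muscle, brain and heart to describe which transcripts distinguish it from those tissues. The arrays were chosen by the tissue and genotype given in their labels: 3 arrays of wild-type testis and 12 arrays of the other tissues, 3 each from wild-type liver, muscle (skeletal), brain and heart, 15 of the 30 arrays in the series. All were from mice on a C57BL/6 background, the wild type littermates of a ClpP KO line, in which a protease of the mitochondrial matrix is deleted; the 15 ClpP KO arrays were not used. The ages of the mice and whether each array held RNA of 1 animal are not given in the sources used here. Total RNA of whole tissue was labelled from its 3' end and hybridised to an Affymetrix mouse expression array, whose 45141 probe sets were deposited as log2 values from robust multi-array averaging (RMA). Each of 17097 genes was represented by 1 probe set, the one with the highest mean over all arrays. For each gene the testis mean was compared with the average of the 4 other tissue means (called the difference below) and with each tissue in turn. The distance from the testis mean to the nearest of the 4 other tissue means is called the margin; it is 0 where testis lay among the other tissues.

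Most of the cells in an adult mouse testis are male germ cells. Spermatogonia divide in the seminiferous epithelium and enter meiosis as spermatocytes, which pair and recombine their chromosomes; the haploid round spermatids that result form an acrosome and a flagellum and then replace histones with transition proteins and protamines as they elongate. Many genes used in these steps are copies or relatives of genes that other tissues use. The X and Y chromosomes are transcriptionally silenced in spermatocytes at pachytene and remain largely repressed in spermatids. Sertoli cells support the germ cells inside the tubules, and Leydig cells outside them make testosterone.

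The labels were checked against marker lists before the comparison. The median over 30 genes of elongating spermatids and sperm was 11, 10.7 and 10.9 (log2) on the testis arrays, against 2.59 to 4.53 on the arrays of the other tissues. In testis the medians of the hepatocyte, neuron and glia, skeletal muscle and cardiomyocyte lists lay between 2.64 and 3.38, near the floor of the array scale, against 12.45 to 12.59 in liver for the hepatocyte list. On 2 arrays, however, genes of another tissue stood out. The array labelled testis replicate 3 had a median of 8.52 over 14 genes of the epididymis, the duct that receives sperm from the testis, against 2.82 and 2.77 on testis replicates 1 and 2 and 2.58 to 2.85 on the other tissues' arrays. Wild-type muscle replicate 1 had the 4.53 just given for spermatid genes, against at most 2.98 on the other 11 arrays outside testis. Brain replicate 3 also stood apart, with 445 genes more than 1 above and 248 more than 1 below both other brain arrays. The RNA of the tissues also differed in a measure of its integrity: the Gapdh control probe sets at the 3' end exceeded those at the 5' end by 0.86 to 1.17 in testis and 0.77 to 1.03 in liver, against 0.23 to 0.41 in muscle, brain and heart. For actin the same measure was 1.40 to 2.03 in testis, 1.67 to 1.78 in liver, 1.21 to 1.32 in brain and 1.16 to 1.35 in heart, against -0.02 to 0.37 in muscle. The part of these differences in the results was not tested. The main counts and some genes are given with and without testis replicate 3 or muscle replicate 1, and other values include both arrays.

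Testis differed from the other tissues in a large share of the genome. With limma, at a Benjamini-Hochberg adjusted p below 0.05 over 17097 genes, 5392 genes (31.5%) were higher in testis than the mean of the 4 tissues and 6821 (39.9%) were lower. Against each tissue separately, 3590 genes (21.0%) were higher in testis than in all 4 and 2256 (13.2%) were lower than in all 4. With a margin of at least 1, a doubling on this scale, 2668 genes (15.6%) lay above all 4 tissues and 1187 (6.94%) below all 4. Without testis replicate 3 and muscle replicate 1 these counts were 2695 and 1294, and without brain replicate 3 they were 2669 and 1186. Of the genes higher than in all 4 tissues, 3507 were called with and without testis replicate 3, 83 were lost without it and 73 were gained.

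The distances above the other tissues were larger than those below. The median margin of the 2668 genes was 2.99 and reached 8.98; that of the 1187 genes was -1.59 and reached -5.69. A margin of at least 3 was found for 1326 genes above and 68 below. In 1627 of the 2668 genes (61.0%) every other tissue mean was under 4, where signals approach the array's floor, and in 292 of the 1187 genes (24.6%) the testis mean was. A difference is written below as "at least" its value, a lower bound, where the testis mean of a gene lower in testis, or the lowest other tissue mean of a gene higher in testis, was under 4. The median difference was -0.10 over all genes and -0.60 over the 5125 brighter ones, those of mean 6 or more. RMA gives all arrays the same distribution of values, so the split between higher and lower depends on how the arrays are centred. Of the genes called against the mean of the 4 tissues 44.1% were higher in testis as deposited, and 66.9% when the arrays were centred on genes with a mean of at least 6. Of the genes outside all 4 tissues 61.4% were above as deposited, and 80.7% after that centring.

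Testis also held the most genes of its own. A mean of at least 6 in 1 tissue and under 4 in the 4 others was found for 1113 genes in testis, against 391 in brain, 345 in liver, 46 in muscle and 31 in heart. The counts of muscle and heart, whose profiles correlated at 0.92, leave out any gene high in both. As a description over 17097 genes, the testis profile correlated with those of the other tissues at r = 0.49 (liver), 0.51 (brain), 0.55 (heart) and 0.56 (muscle), and the other tissues correlated among themselves at 0.65 to 0.92. Setting 1 tissue aside, 351 genes were at least 1 higher in testis than in the 3 others but not than in brain, 248 not than in liver, 142 not than in muscle and 108 not than in heart; a gene high in both muscle and heart, which resemble each other, counts for neither.

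**Figure D1:**
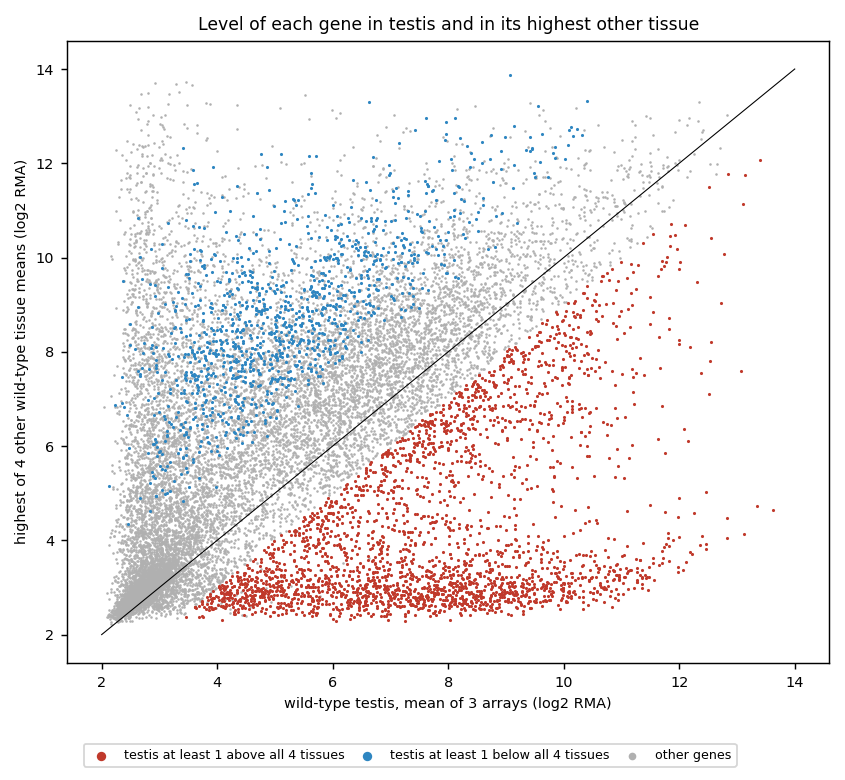
Each point is 1 of 17097 genes, with its mean on the 3 wild-type testis arrays (horizontal, log2 RMA) and the highest of the 4 other wild-type tissue means (vertical, log2 RMA); the line marks equal levels. The 2668 genes at least 1 above all 4 tissues (red) include a dense band at the bottom where no other tissue exceeded 4, and the 1187 genes at least 1 below all 4 are in blue.

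Of the genes with large margins, Tnp1, Prm2, Tnp2 and Prm1 encode proteins that pack sperm DNA. Transition protein 1 (Tnp1), which displaces histones in elongating spermatids, had 13.20, 12.92 and 13.24 in testis, against a lowest, median and highest of 2.22, 2.65 and 7.18 on the 12 other arrays; the values of other genes are given in the same way. Its difference was at least 10.18 ± 0.66 (SE; limma adjusted p = 2.81e-09), and the groups did not overlap, as the choice of the 20 genes required. Protamine 2 (Prm2) had 13.70, 13.56 and 13.63 in testis, against 2.42, 2.72 and 8.36, a difference of at least 10.46 ± 0.80 (limma adjusted p = 1.77e-08). In both genes the highest value outside testis was that of muscle replicate 1, and without it the margins were at least 10.47 for Tnp1 and at least 10.79 for Prm2, against 8.98 for each with it. Protamine 1 (Prm1) and Tnp2 had margins of 8.63 and 8.77, or at least 10.08 and 10.02 without that array. Among 16 measured genes of spermatid chromatin, 14 were higher in testis (12 above all 4 tissues) and 1 was lower, with a median difference of 7.13. The spermatid linker histones H1f7 and Hils1 had differences of at least 8.42 and 8.62, and the histone variants H2al2a and H2al1m of at least 8.05 and 7.02. H1f6, the testis linker histone of spermatocytes, was higher by at least 0.44, with 3.36, 3.25 and 3.45 in testis, against 2.56, 2.95 and 3.10, all near the floor. Rnf8, a ubiquitin ligase of DNA damage sites, was lower by 0.61.

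Promoters of the genes with the largest margins had few CG dinucleotides. In the RefSeq promoters of mouse build GRCm38.p6, taken from 250 bases before to 50 after each transcription start, the ratio of observed to expected CG had a median of 0.64 over 2706 promoters of 2181 genes at least 1 above all 4 tissues. It was 0.75 for the 1247 promoters of 963 genes at least 1 below. For the 13112 promoters of tested genes that were neither it was 0.64, and 0.73 for the 6878 of these whose gene reached 6 in another tissue. Within the first group the median was 0.74 for margins of 1 to 3, 0.59 for 3 to 5, 0.43 for 5 to 7 and 0.27 for 7 or more. Ratios under 0.4 made up 24.0%, 35.5%, 47.3% and 62.0% of those 4 classes, against 51.4% of all 32851 promoters, 32.8% of the tested promoters that were neither and 22.0% of those whose gene reached 6 in another tissue. For genes below all 4 tissues the median was 0.76 for margins of 1 to 3 in size and 0.61 for 3 or more. Ratios under 0.4 made up 13.7% and 28.4% of these 1180 and 67 promoters. These are descriptions, since promoters of 1 gene can overlap. The promoters of Prm1 (chr16:10796774-10797073, minus strand) and Tnp2 (chr16:10788606-10788905, minus strand), neighbours in the protamine cluster, are shown 5' to 3' with every CG in capitals, as examples from the class with the largest margins; they hold 1 and 4 of them, at ratios of 0.05 and 0.17.
Prm1: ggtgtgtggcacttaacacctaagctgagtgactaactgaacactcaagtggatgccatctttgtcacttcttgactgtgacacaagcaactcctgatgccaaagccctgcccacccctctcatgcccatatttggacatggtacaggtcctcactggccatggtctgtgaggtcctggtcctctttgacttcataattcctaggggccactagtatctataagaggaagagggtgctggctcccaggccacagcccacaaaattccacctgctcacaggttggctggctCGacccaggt
Tnp2: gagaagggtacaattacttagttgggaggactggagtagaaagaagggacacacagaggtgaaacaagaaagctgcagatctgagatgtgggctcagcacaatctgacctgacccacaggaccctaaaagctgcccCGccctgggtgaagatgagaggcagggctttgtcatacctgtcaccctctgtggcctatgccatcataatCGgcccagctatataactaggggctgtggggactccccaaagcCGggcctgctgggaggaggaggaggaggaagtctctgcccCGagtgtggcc

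The other genes among the 20 with the largest margins had various roles. Smcp, a cysteine-rich protein of sperm mitochondria, had 12.33, 11.48 and 12.15 in testis, against 2.09, 2.40 and 5.11. Lactate dehydrogenase C (Ldhc), the germ cell form of that glycolytic enzyme, had 12.97, 12.67 and 12.86 in testis, against 2.45, 3.01 and 6.98, a difference of at least 9.58 ± 0.54 (limma adjusted p = 5.58e-10). Adad1, an RNA-binding protein of spermatids, had 10.73, 11.07 and 10.70 in testis, against 1.97, 2.17 and 3.30. As the choice of these genes required, none of the 3 overlapped. In each the highest value outside testis was that of muscle replicate 1. Without it the margins of Smcp, Ldhc and Adad1 were at least 9.54, 9.61 and 8.61, against 8.65, 8.36 and 8.25 with it. The others were the transcription factors Spz1 and Tcfl5, the small heat shock protein Hspb9, the dynein assembly factor Dnaaf1, the endozepine-like peptide Dbil5, the poly(A) binding protein Pabpc2, the fatty acid binding protein Fabp9, the tubulin Tuba3a, the phosducin-like Pdcl2, the outer dense fibre protein Odf2, the piRNA factor Gtsf1, the HMG box protein Hmgb4, and Gsg1. Their differences ran from at least 8.55 (Gtsf1) to at least 9.41 (Dbil5). These hold for the probe set used. Dbil5, Fabp9, Dnaaf1 and Odf2 had 2 probe sets each, and the other had smaller differences of 0.086, 1.485, 3.405 and 3.641.

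Lists of spermatid genes as a whole showed the same contrast. The counts of each list stand beside the shares over all genes: 31.5% higher, 39.9% lower, 21.0% above all 4 tissues and 13.2% below. Of 21 genes of round spermatids 20 were higher in testis and above all 4 tissues, and 1 was lower, with a median difference of 7.17. Tssk2, a spermatid kinase, had 11.13, 10.92 and 11 in testis, against 2.21, 2.42 and 3.83. Of 30 genes of elongating spermatids and sperm 27 were higher (26 above all 4 tissues), 1 was lower and 2 were not called, with a median of 7.88. The member that was lower was Car4, a carbonic anhydrase of sperm and of many tissues, with 3.60, 4.04 and 5.30 in testis, against 3.23, 5.62 and 7.78, lower by 1.34 and overlapping.

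**Figure D2:**
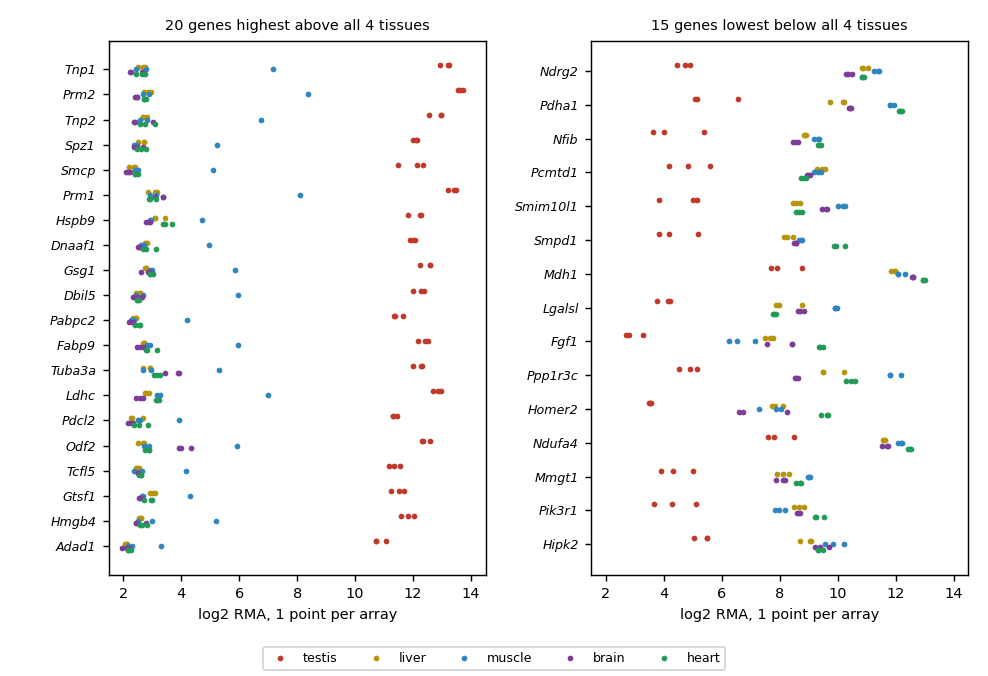
Log2 RMA on each of the 15 wild-type arrays (1 point per array, coloured by tissue) for the 20 genes with the largest margins above the 4 other tissues (left) and the 15 with the largest margins below them (right). Genes were chosen for having no overlap between testis and the others; the separate muscle points on the left are muscle replicate 1.

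Genes of the acrosome and of sperm-egg recognition were high in testis. Of 29 measured, 26 were higher and all 26 lay above each of the 4 tissues; 1 was lower, and the median difference was 5.91. Adam2 and Adam3, membrane proteins that sperm need to pass the oviduct and bind the egg coat, had differences of at least 8.43 and 7.92. The acrosomal proteins Acrv1 and Zpbp had at least 7.76 and 7.69. List members that were not called are named here and below after their values were seen; for acrosomal Spaca3 the difference was 0.14. Zpbp had a probe set that hardly differed (-0.05), and so had Zpbp2 (0.07 against at least 7.17 for the probe set used), so that for such genes the value depends on the probe set. Calr3, the calreticulin relative of the testis, was lower by 1.01 with the probe set of highest mean, while another of its 3 probe sets was higher by 5.16.

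The flagellum list held 47 measured genes. Of these 43 were higher in testis (42 above all 4 tissues), 1 was lower, and the median difference was 5.48. Akap4, the main anchoring protein of the fibrous sheath and X-linked, had 11.31, 10.98 and 11.20 in testis, against 2.32, 2.67 and 4.56, a difference of at least 8.32. Odf1 of the outer dense fibres had 11.79, 11.53 and 11.63, against 2.38, 2.50 and 5.27, with a difference of at least 8.88. Rsph1 of the radial spokes and Ropn1l, which binds anchoring proteins of the fibrous sheath, had at least 8.45 and 8.43. Dnah17, Rsph4a and Cfap47 had differences of 0.03, -0.18 and -0.04 and were not called. Tsga10, a testis gene whose probe set lay at 2.93, 3.41 and 2.97 in testis, against 3.21, 4.38 and 5.92, was lower by at least 1.41.

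A larger share of the promoters of genes high in testis held the letters GTTGCC, which form an arm of the X-box that RFX transcription factors bind in genes of cilia. On either strand these letters occurred in 18.6% of the 2706 promoters of genes above all 4 tissues, against 11% of the promoters of genes below, 11.9% of those that were neither and 12.5% of all 32851. The longer GTTGCCATG, which contains it, occurred in 1.7%, against 0.241%, 0.541% and 0.773% of the same groups. The CRE motif TGACGTCA, searched in the same way, occurred in 2.81%, against 4.09%, 2.28% and 1.79%. A match is a description of the letters and not a bound site. The RFX genes measured in the list of transcription regulators below, named after their values were seen, were higher in testis. Rfx2 was higher by at least 5.57, Rfx3 by at least 4.12, Rfx4 by at least 3.45 and Rfx1 by at least 1.83. Other members of the RFX family are not given here. Kif9, a kinesin of the flagellum, and Deup1, which helps to build centrioles in multiciliated cells, were likewise chosen as examples. Kif9 had 9.75, 9.35 and 9.70 in testis, against 2.62, 2.94 and 3.63, and Deup1 had 9.79, 9.65 and 9.44, against 2.60, 2.77 and 3.39. Promoters of Kif9 (chr9:110476708-110477007, plus strand) and Deup1 (chr9:15627797-15628096, minus strand), 1 of 2 in the table for each, are shown with the match in capitals; in Deup1 it stands as the reverse complement, GGCAAC.
Kif9: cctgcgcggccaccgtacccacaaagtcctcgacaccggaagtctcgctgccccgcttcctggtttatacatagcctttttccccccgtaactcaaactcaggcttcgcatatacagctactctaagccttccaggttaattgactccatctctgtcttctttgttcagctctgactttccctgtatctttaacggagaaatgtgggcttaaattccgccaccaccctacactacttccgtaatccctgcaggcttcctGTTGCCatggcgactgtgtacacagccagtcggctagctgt
Deup1: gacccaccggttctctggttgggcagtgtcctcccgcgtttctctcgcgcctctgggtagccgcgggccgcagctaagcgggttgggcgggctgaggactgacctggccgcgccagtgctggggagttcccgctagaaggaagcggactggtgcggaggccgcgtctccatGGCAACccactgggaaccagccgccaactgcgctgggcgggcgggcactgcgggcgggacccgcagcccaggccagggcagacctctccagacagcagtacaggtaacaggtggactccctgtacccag

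Ion channels and kinases of sperm were also mostly higher in testis. Of 16 measured channel and transporter genes, 14 were higher in testis (13 above all 4 tissues), none was lower, and the median difference was 5.08. Catsper2 and Catsper3, pore subunits of the calcium channel needed for hyperactivated swimming, had differences of at least 5.52 and 5.47, and its calcium sensor Efcab9 at least 7.17. The auxiliary subunit Catsperg2 and the proton channel Hvcn1 were not called, at -0.11 and 0.19. Of 27 kinase and phosphatase genes 21 were higher (20 above all 4) and 5 were lower, with a median of 3.35. Tssk6, a spermatid kinase, had 11.71, 11.04 and 11.46 in testis, against 2.44, 2.90 and 3.93, and a difference of at least 8.48. Prkacb, a catalytic subunit of protein kinase A used in many tissues, had 4.40, 4.96 and 5.39 in testis, against 6.97, 7.39 and 9.84, and was lower by 2.91 (-2.91 ± 0.18, limma adjusted p = 1.52e-09).

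**Figure D3:**
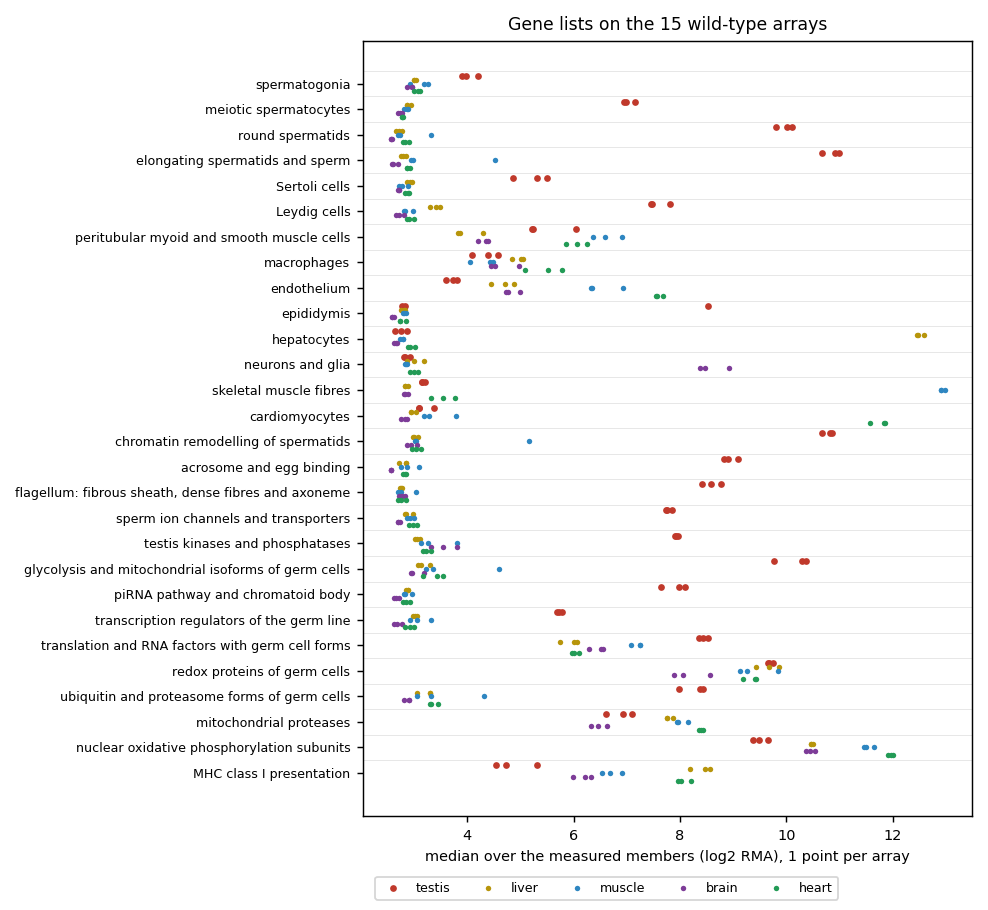
For each of 28 gene lists, the median log2 RMA over its measured members on each of the 15 wild-type arrays (1 point per array, coloured by tissue). The lists of the 4 germ cell stages are highest on the 3 testis arrays, the redox list overlaps with other tissues, the epididymis list is high on testis replicate 3 alone, and the oxidative phosphorylation list is lowest in testis.

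The germ line list of piRNA and chromatoid body genes, which silence transposons and store RNA, had 25 of 27 higher in testis (23 above all 4 tissues) and none lower, with a median of 4.32. Gtsf1 had 11.69, 11.25 and 11.50 in testis, against 2.55, 2.82 and 4.30. Mael and Gtsf1l had differences of at least 8.51 and 7.95, and Piwil1, the pachytene piRNA-binding protein, of at least 6.73. Piwil4, active in fetal germ cells, was not called at -0.06. Among 36 meiotic genes 32 were higher and lay above all 4 tissues, none was lower, and the median was 4.16. The synaptonemal complex genes Syce1, Syce2 and Sycp2 had at least 8.03, 7.11 and 6.29, and the meiotic cohesins Stag3 and Smc1b at least 6.82 and 6.48. The recombinase Dmc1 had 5.86, 5.65 and 5.46 in testis, against 2.62, 2.81 and 3.05, a smaller difference of at least 2.83. Prdm9, which places recombination hotspots, was near the floor everywhere and was not called, at 0.13.

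Spermatogonial genes had the smallest median difference of the lists of germ cell stages, 0.30. Of 23 measured, 11 were higher in testis (8 above all 4 tissues) and 4 lower. Over all genes 31.5% were higher, 21.0% above all 4 tissues and 39.9% lower. The list's largest differences were those of Tex101, Ddx4 and Dazl, at least 6.47, 6.26 and 6.26; Tex101 marks germ cells of several stages, and the RNA helicase Ddx4 and the RNA-binding Dazl persist into meiosis. Stra8, which starts meiosis, had 6.18, 6.19 and 5.86 in testis, against 2.41, 2.76 and 2.98. The stem cell genes Gfra1, the receptor of the niche factor GDNF, and Zbtb16 were lower by at least 1.93 and by 1.92 and overlapped with other tissues, which express both. For Gfra1 the testis values were 3.09, 2.86 and 5.88, against 3.61, 5.32 and 8.91, so testis replicate 3 stood apart from the others; without it Gfra1 was lower by at least 2.90 (-2.90, limma adjusted p = 7.95e-07), and both remaining testis arrays lay below all others. In whole tissue, fewer cells of a type and less RNA per cell cannot be told apart.

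Most listed regulators of transcription were higher in testis. Of 42 measured, 27 were higher in testis (25 above all 4 tissues) and 6 lower (4 below all 4), with a median of 2.15. The shares over all genes were 31.5% higher, 21.0% above all 4, 39.9% lower and 13.2% below all 4. Tcfl5 had 11.33, 11.55 and 11.18 in testis, against 2.39, 2.53 and 4.16. Gtf2a1l, the germ cell relative of general factor TFIIA, and Fhl5, a coactivator of CREM, had differences of at least 8.48 and 8.04, and Crem itself at least 6.64. Nfyb, a subunit of the CCAAT-binding factor, had 4.60, 4.82 and 4.94 in testis, against 6.16, 7.74 and 8.05, and was lower by 2.55. Atf4 of the stress response was lower by 1.89. Translation and RNA factors had 17 of 26 higher (16 above all 4) and 8 lower, with a median of 1.55: Rpl39l, Papolb and Pabpc6 had at least 8.69, 7.97 and 7.58, while Paip2, an inhibitor of poly(A) binding protein, was lower by 2.0 and Celf1 by 1.76. The list of ubiquitin and proteasome forms had 16 of 25 higher (15 above all 4) and 7 lower, with a median of 3.15, led by the spermatid substrate adaptors Klhl10 and Asb17, with at least 8.44 and 8.37. That list also holds the potassium channel Kcna7 and the kinase Lmtk2, both among the members called lower.

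Of 17 redox genes measured, 8 were higher in testis, each above all 4 tissues, and 8 lower, 5 of them below all 4, with a median of -0.31; the shares over all genes given above were 31.5% and 21.0% higher and 39.9% and 13.2% lower. The spermatid thioredoxins Txndc2 and Txndc8 had differences of at least 7.49 and 7.43. Txnrd3, a thioredoxin-glutathione reductase, had 11.36, 11.11 and 11.20 in testis, against 4.38, 5.86 and 7.08. Catalase (Cat), which removes hydrogen peroxide in peroxisomes, had 5.0, 5.81 and 5.26 in testis, against 7.24, 9.23 and 11.35, and was lower by 3.85 (limma adjusted p = 4.65e-12). The widely used Prdx3, Txn1 and Gpx1 were lower by 2.74, 2.22 and 2.20, while Gpx4, Prdx4 and Glrx2, which are also widely used, were higher by 1.53, 2.87 and 1.27.

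Many enzymes exist as a germ cell form and a widely used form, and many such pairs differed between tissues in opposite directions. Of 42 pairs listed, both members were measured in 28. The partner is called widely used in every pair, although Acsbg1, the partner of Acsbg2, was high in testis and brain alone. In 26 pairs the testis form lay above all 4 tissues, in 14 the widely used partner lay below all 4, in 4 it lay above, and in 13 pairs both the testis form was above and the partner below. These counts depend on the probe set used, as in the pairs of Rec8 with Rad21 and Calr3 with Calr. Calr3 did not lie above all 4 tissues, with a difference of -1.01, but another of its probe sets had 5.16. Rad21 had a margin of -1.10 with the probe set used and of 3.02 with another. Among 22 members of the wider list of glycolytic and mitochondrial forms, 20 were higher and above all 4 and 2 were lower, with a median of 6.19. Phosphoglycerate kinase 2 (Pgk2), an intronless copy on chromosome 17, had 11.50, 11.18 and 11.40 in testis, against 2.25, 2.41 and 4.63. Its X-linked parent Pgk1 had 6.85, 6.89 and 7.18 in testis, against 10.43, 11.03 and 12.14. Their differences were at least 8.78 ± 0.32 for Pgk2 and -4.16 ± 0.09 for Pgk1 (limma adjusted p = 3.29e-12 and 7.91e-15). Both enzymes catalyse the same step, so their promoters are shown with every CG in capitals: that of Pgk2 (chr17:40208560-40208859, minus strand) holds 4, a ratio of 0.29, and that of Pgk1 (chrX:106186850-106187149, plus strand) 24, a ratio of 0.72.
Pgk2: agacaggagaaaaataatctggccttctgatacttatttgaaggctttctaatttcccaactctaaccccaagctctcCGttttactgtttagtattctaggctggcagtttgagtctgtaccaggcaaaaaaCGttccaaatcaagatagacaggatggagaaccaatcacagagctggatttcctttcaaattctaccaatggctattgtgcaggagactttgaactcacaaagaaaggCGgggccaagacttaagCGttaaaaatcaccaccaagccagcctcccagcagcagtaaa
Pgk1: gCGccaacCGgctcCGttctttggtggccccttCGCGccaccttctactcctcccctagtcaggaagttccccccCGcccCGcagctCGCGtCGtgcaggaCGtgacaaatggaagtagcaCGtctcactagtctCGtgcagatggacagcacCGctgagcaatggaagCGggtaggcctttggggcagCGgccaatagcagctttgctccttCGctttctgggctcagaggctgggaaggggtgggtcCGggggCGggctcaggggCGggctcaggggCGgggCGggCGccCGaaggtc

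Glyceraldehyde-3-phosphate dehydrogenase showed the same pattern with both genes on autosomes. Gapdhs, anchored to the fibrous sheath, had 12.15, 11.64 and 12.13 in testis, against 2.79, 3.38 and 6.35, and Gapdh had 9.57, 8.97 and 10.12 in testis, against 11.65, 12.65 and 13.26. Testis cytochrome c (Cyct) was higher by at least 6.30 and its partner Cycs lower by 2.50. The testis subunits Cox6b2 and Cox8c of cytochrome oxidase were higher by at least 6.47 and 7.53, and Cox6b1 and Cox8a lower by 3.32 and 2.30. In the chaperone pair, Hspa2, needed in meiosis, was higher by 6.21 and Hspa8 lower by 1.77. Lactate dehydrogenase differed from these: Ldha, the subunit of muscle type lactate dehydrogenase, had 11.64, 11.43 and 11.43 in testis, against 9.02, 11.31 and 13.12, a difference of 0.24 ± 0.15 (limma adjusted p = 0.157), and overlapped. The partners that lay above all 4 tissues were Papola, Ybx1, Pabpc1 and Ccna2; Pabpc1, the general poly(A) binding protein, had 13.12, 13.10 and 13.08 in testis, against 10.26, 10.55 and 11.22.

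**Figure D4:**
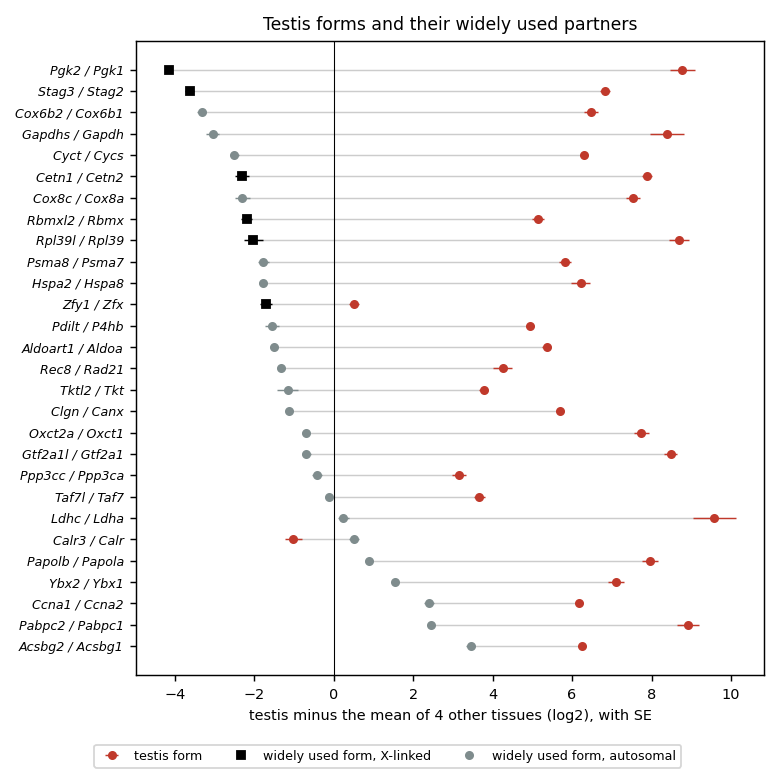
Difference of testis from the mean of the 4 other tissues (log2, with SE from limma, 3 testis and 12 other arrays) for the testis form (red) and its widely used partner (black squares X-linked, grey circles autosomal) in 28 pairs. All 6 pairs with an X-linked partner have that partner left of 0. The testis forms lie right of 0 except Calr3, for which another probe set was higher in testis. Acsbg1, drawn as a widely used partner, was high in testis and brain alone.

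In all 6 measured pairs with an X-linked partner, the partner lay below all 4 tissues (Pgk1, Stag2, Cetn2, Rbmx, Rpl39 and Zfx), and in 5 of these pairs the testis form lay above all 4. Of 22 pairs with an autosomal partner 8 had it below, Rad21 with the probe set used among them. With the X-linked members whose pair was not complete, all 8 X-linked widely used forms lay at least 1 below all 4 tissues. Pdha1, the catalytic subunit gene of pyruvate dehydrogenase, had 5.07, 5.16 and 6.55 in testis, against 9.72, 11.13 and 12.20, and was lower by 5.52 ± 0.23 (-5.52, limma adjusted p = 1.25e-11). Stag2 of the cohesin ring had 4.62, 4.75 and 5.14 in testis, against 8.06, 8.41 and 8.96. The ribosomal protein genes Rpl10 and Rpl39 were lower by 1.82 and 2.02; for Rpl10 the testis values were 9.25, 9.61 and 11.21, against 11.58, 11.82 and 12.12, the third of them close to the other tissues. The exception was the pair of Zfx and the Y-linked Zfy1, both zinc finger regulators: Zfy1 had 3.55, 4.05 and 3.57 in testis, against 2.74, 3.27 and 3.57. The related Zfy2, not in the listed pairs and named after its value was seen, lay above all 4 tissues with a margin of 3.02.

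Across the X chromosome both directions were common. Of 596 X-linked genes measured, 91 (15.3%) lay at least 1 below all 4 tissues, against 6.69% of 16328 autosomal genes and 4.14% to 9.58% on single autosomes. At least 1 above all 4 lay 96 (16.1%), against 15.5% on the autosomes together and 12.5% to 18.5% singly. Without testis replicate 3 and muscle replicate 1 the X-linked counts were 100 below and 94 above. Many X-linked genes are low everywhere: among the 238 X-linked genes whose highest other tissue reached 6, 82 (34.5%) lay at least 1 below all 4, with a median difference of -1.72, against 13.3% and -0.82 for 7949 such autosomal genes and 9.49% to 18.1% on single autosomes. Of 12 genes on the Y chromosome, 5 (41.7%) lay at least 1 above all 4 tissues. These shares are given without a test, since genes of a chromosome are not independent.

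Several X-linked genes known from spermatids were high in testis. Besides Akap4, these were Tsga8, Cypt1 and H2al1m, chosen after their values were seen; Tsga8 had 11.92, 11.70 and 11.81 in testis, against 2.45, 2.84 and 5.52. Cypt1 and H2al1m had margins of 7.19 and 6.92. Among those far below the other tissues were genes that act in most cell types. Mcts1, a translation factor, and Eif2s3x, a subunit of eIF2, both chosen after their values were seen, had margins of -3.56 and -3.33, and Mmgt1 had -3.64. Eif2s3x had 5.0, 5.07 and 6.27 in testis, against 8.70, 8.86 and 9.24. Its Y-linked relative Eif2s3y had 6.88, 7.33 and 6.95 in testis, against 6.54, 7.69 and 8.13, a difference of -0.41 that became 0.07 when arrays were centred on genes with a mean of at least 6, and overlapped with the other tissues.

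**Figure D5:**
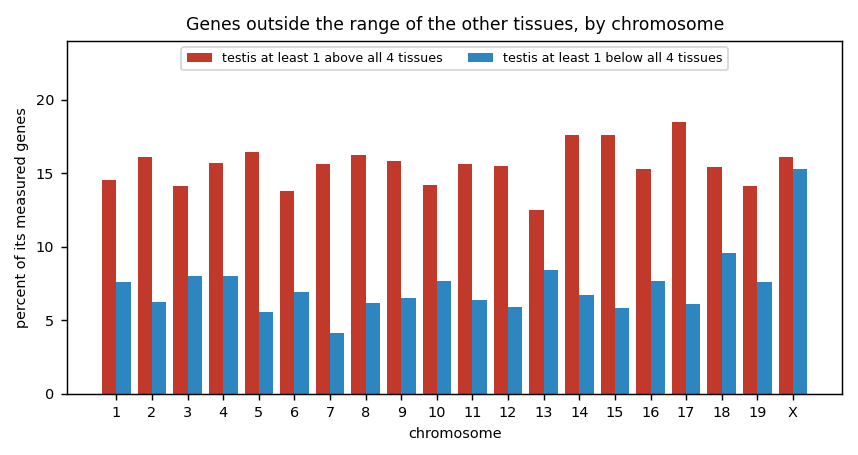
Percent of the measured genes of each chromosome (autosomes and X; the 12 genes of the Y are not drawn) that lay at least 1 above (red) or at least 1 below (blue) all 4 other tissues. The X chromosome has 15.3% below, where the autosomes have 4.14% to 9.58%, while its 16.1% above lies within their 12.5% to 18.5%.

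Among the somatic cells of the testis, 9 of 13 Leydig genes and 10 of 21 Sertoli genes lay above all 4 other tissues. Of all genes 21.0% did, while 31.5% were higher than the mean of the 4 tissues and 39.9% lower. Against the mean of the 4 tissues 11 Leydig genes were higher and 1 lower, with a median of 3.70. Insl3, the hormone of testis descent, had 12.07, 11.72 and 12.21 in testis, against 3.09, 4.34 and 5.22, a difference of at least 7.77. The steroid enzyme Cyp17a1 had 9.66, 10.03 and 10.12, against 2.48, 2.75 and 6.78; Star, which brings cholesterol into mitochondria, had a difference of at least 3.95 and Cyp11a1, which cuts its side chain, of at least 3.84. Of the Sertoli genes 17 were higher and 1 lower, with a median of 1.30. Aard and the X-linked homeobox gene Rhox5 had at least 6.40 and 4.28, and Amhr2 and inhibin alpha (Inha) at least 4.24 and 3.60. Amh, which Sertoli cells make before puberty, was not called at 0.02. Transferrin (Trf), the iron carrier that liver also makes, was lower by 3.44 and overlapped with the other tissues.

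Genes of blood vessels were mostly lower in testis. Of 16 endothelial genes none was higher and 15 were lower, 7 of them below all 4 tissues, with a median of -1.89. Flt1, a VEGF receptor, had 2.49, 2.67 and 2.85 in testis, against 3.97, 6.57 and 7.66, lower by at least 3.54. Of 21 macrophage genes 3 were higher and 12 lower, but 1 lay below all 4 tissues, with a median of -0.60; over all genes 39.9% were lower and 13.2% below all 4. The exception in size was Aif1, with 10.81, 10.34 and 10.51 in testis, against 3.60, 4.06 and 4.67; the microglial and macrophage genes C1qa and Tyrobp were lower by 1.54 and 1.89. Of 13 genes of MHC class I presentation 9 were lower, 3 below all 4 tissues, and 2 were higher, with a median of -1.28. The immunoproteasome subunit Psmb10 was lower by 2.57 and the nonclassical H2-T23 by 3.30. Without testis replicate 3 the number below all 4 tissues was 5. The peritubular and smooth muscle list, of 10 genes, had 7 higher and 3 lower, but 1 above all 4 tissues, Actg2, with 9.22, 8.58 and 9.25 in testis, against 2.36, 2.79 and 4.06. Over all genes 31.5% were higher and 21.0% above all 4.

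Genes used to mark the other tissues were set against a mean that includes the tissue they mark, so a lower call restates that choice. None of the hepatocyte, skeletal muscle or cardiomyocyte genes and 2 of the neuron and glia genes lay below all 4 tissues. Against the mean, of 18 hepatocyte genes 17 were lower and 1, Ass1, was higher by at least 0.51. That call was lost without testis replicate 1 or 3, at 0.40 and 0.41, and also without single arrays of each other tissue. The mean of all probe sets of Ass1 gave 0.05. Of 17 genes of neurons and glia 14 were lower than the mean and 1 higher, and all 20 skeletal muscle genes were lower. Of 18 cardiomyocyte genes 13 were lower and 3 higher. The genes higher in testis were cardiac troponin I (Tnni3), with 7.23, 6.97 and 6.99 in testis, against 2.51, 2.72 and 13.04; phospholamban (Pln), with 8.03, 8.11 and 7.57, against 2.58, 2.92 and 12.59; and the atrial light chain Myl4, with 7.68, 7.43 and 7.54, against 2.88, 4.42 and 7.75. The means of Tnni3 and Pln in testis lay between those of heart, the highest, and the other tissues; the Myl4 values overlapped with muscle and heart. Another probe set of Pln was lower by 2.84. The defining cardiac genes Myl2 and Actc1 stood at 2.72 to 3.49 in testis.

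The gene farthest below the other tissues was Ndrg2, an N-myc downstream regulated gene of differentiated cells. It had 4.72, 4.45 and 4.90 in testis, against 10.29, 10.85 and 11.43, a difference of -6.19 ± 0.09 (limma adjusted p = 4.93e-16). Pdha1, given above, had the next largest margin. Nfib, a nuclear factor I of lung and brain development, had 3.63, 3.99 and 5.40 in testis, against 8.45, 9.04 and 9.43. Cytosolic malate dehydrogenase (Mdh1) had 7.69, 7.89 and 8.77, against 11.84, 12.44 and 13.00, lower by 4.29. Ppp1r3c, which targets a phosphatase to glycogen, was lower by 5.31 and Ndufa4 of the respiratory chain by 4.02. The rest of the 15 genes with the largest margins below were Pcmtd1, Smim10l1, Smpd1 (acid sphingomyelinase), Lgalsl, Fgf1, Homer2, Mmgt1, Pik3r1 (a regulatory subunit of phosphoinositide 3-kinase) and the kinase Hipk2, with differences between -4.03 and -5.03; those of Fgf1 and Homer2 are lower bounds in size. Of the 8 probe sets of Hipk2, at least 1 was higher in testis, by 2.52.

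Genes of oxidative phosphorylation were mostly lower in testis. Of 74 nuclear subunit genes 69 were lower in testis, 54 below all 4 tissues, and 1 was higher, with a median of -1.64, beside the median of -0.60 given above for the brighter genes of the array. Over all genes 39.9% were lower and 13.2% below all 4. Ndufa4 had 7.59, 7.79 and 8.48 in testis, against 11.54, 11.91 and 12.54, and Cox6b1 had 8.34, 8.82 and 9.06, against 11.63, 11.97 and 12.65. Neither overlapped. The muscle and heart forms Cox6a2, Cox8b and Cox7a1 were lower by at least 4.86, 4.60 and 4.48, but were near the floor in liver and brain too. Cox6a1 was the member that was higher, by 0.29, within the range of the other tissues; without testis replicate 2 its difference was 0.24 and was not called. After centring on genes with a mean of at least 6, 41 members lay below all 4 tissues, against 54 as deposited.

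Clpp, the gene deleted in the mice not used here, was itself low in wild-type testis. It had 6.32, 5.88 and 6.93 in testis, against 7.79, 8.65 and 9.21, a difference of -2.21 ± 0.16 (limma adjusted p = 8.67e-09) and a margin of -1.59, and no testis array reached the other tissues. Of 19 genes of mitochondrial proteases and their regulators 10 were lower (6 below all 4 tissues) and 4 higher (2 above), with a median of -0.42, where 39.9% of all genes were lower and 31.5% higher. Below all 4 tissues lay 13.2% of all genes, and above them 21.0%. Oma1 of the inner membrane and the matrix protease Lonp1 were lower by 2.79 and 2.31. Lonp2, its peroxisomal relative, is counted in this list and was lower by 2.19, below all 4 tissues. Mipep, which trims imported precursors, had 10.27, 10.00 and 9.96 in testis, against 6.32, 7.92 and 9.12, higher by 2.28. Yme1l1, an inner membrane protease, had 9.20, 9.32 and 9.26, against 6.59, 7.62 and 8.06, higher by 1.76, though another of its probe sets was lower by 1.77. Atp23 and Immp1l were higher by 0.37 and 0.33 and overlapped with the other tissues, and Immp1l was not called without testis replicate 3. The remaining members called lower were Lactb (-1.36), Phb2 (-1.16), Pmpca (-1.10), Pitrm1 (-0.85, a lower bound in size), Afg3l2 (-0.61) and Htra2 (-0.42). Htra2 changed sign to 0.07 when arrays were centred on genes with a mean of at least 6, and Pmpca had a probe set that was higher. Afg3l1, Spg7, Parl, Pmpcb and Xpnpep3 were not called, with differences of 0.10, 0.06, 0.01, 0.17 and 0.05.

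Different probe sets of a gene could point in opposite directions. Of 7180 genes with more than 1 probe set, 72 (1%) had 1 at least 1 above all 4 tissues and another at least 1 below. Over all 28898 probe sets of 1 gene each, 3788 (13.1%) were at least 1 above and 1757 (6.08%) at least 1 below. Such a pair was present for 14 of 906 genes with several probe sets that counted as above, and for 49 of 753 that counted as below. Gpd2, the mitochondrial glycerol-3-phosphate dehydrogenase, was chosen after its values were seen: the probe set used had 11.53, 11.46 and 11.51 in testis, against 5.79, 8.32 and 9.18, and another had 3.44, 3.54 and 3.70, against 5.67, 8.08 and 10.59. Hipk3 and Pias2, chosen likewise, behaved in the same way. The used probe set of Pias2, a SUMO ligase, had 11.37, 11.55 and 11.26 in testis, against 5.68, 6.15 and 7.83, and another had 3.34, 2.99 and 3.84, against 5.43, 6.42 and 8.64. For these genes 1 probe set gives no statement about the gene as a whole.

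Testis stood apart in probe sets without a gene name as well. Of 15588 such probe sets, 948 (6.08%) were at least 1 above all 4 tissues and 454 (2.91%) at least 1 below. Most are dim everywhere: among the 3602 whose mean reached 6 in at least 1 tissue 17.5% were at least 1 above, against 21.1% of 9849 genes that bright. A mean of at least 6 in testis and under 4 in all other tissues was found for 328, against 236 for brain, 103 for liver, 19 for heart and 17 for muscle. Probe sets high in both heart and muscle again count for neither.

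The 3 testis arrays correlated with each other at 0.977 to 0.990. The array labelled testis replicate 3 had 349 genes more than 1 above both others, and 66 genes at least 3 above, against 9 genes for replicate 1 and 6 for replicate 2 at the first limit. The largest ranges were those of secreted proteins of the epididymis. The lipocalin Lcn5 had 2.83, 2.82 and 11.70, and the glutathione peroxidase Gpx5 had 3.21, 3.52 and 11.82, against 2.54 to 2.99 and 3.07 to 3.69 on the other tissues' arrays. Of 14 epididymis genes 7 were called higher in testis. Without replicate 3 the differences of Lcn5, Gpx5, Adam7 and Cst11 were 0.09, 0.02, 0.16 and 0.04 (limma adjusted p = 0.467, 0.88, 0.257 and 0.695), and those of Rnase10, Defb15 and Cuzd1 were 1.18, 1.07 and 2.11. Another 4 genes, Lcn8, Lcn12, Adam28 and Spint4, were high on replicate 3 alone and were not called, at differences of 2.50, 1.54, 1.61 and 1.83. Pate4, Ros1 and Bmyc had 0.20, 0.18 and -0.46; without replicate 3 Bmyc was lower by 1.39. Cuzd1 had 6.26, 4.09 and 10.52 in testis, against 2.40, 2.88 and 4.04, above the others on all 3 arrays.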

How the data were processed

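Total RNA from whole tissue, extracted with a column kit and labelled as biotinylated cRNA by 3' in vitro transcription, was hybridised to Affymetrix arrays, per the labels' protocols. The authors deposited log2 expression values from RMA, made in R 2.14.0 per the submitters' processing notes. Of 45141 probe sets, 28898 carried 1 gene symbol, 551 several and 15692 none (104 of them controls). Where a gene had several, the brightest on average across the 30 arrays stood for it, giving 17097 genes, and 16937 genes were matched to RefSeq for chromosomes. A group-means model was fitted to the 15 wild-type arrays with limma 3.58.1 in R 4.3.3 (10 residual degrees of freedom), with the contrast of testis against the mean of the 4 other tissues and 4 pairwise contrasts, each adjusted by Benjamini-Hochberg over all genes at a threshold of 0.05. A gene was higher or lower than in all 4 tissues where all 4 pairwise adjusted p-values passed in that direction. The procedure was tested on simulated data. Depth has no meaning for arrays; the 3 arrays per tissue limit the precision. Nothing states that the replicates are separate animals, so p-values measure the spread between these samples, which may be technical.

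The members, gene lists and tests were chosen with earlier results of these data known. The genes named are the 20 with the largest margin above and the 15 with the largest margin below the other tissues (called against all 4, no overlapping arrays, and a testis mean of at least 6, or for the lower genes a lowest other tissue mean of at least 6), leaving out 293 and 22 clone names or predicted genes among 2512 and 1347 that qualified. They also include up to 6 called members of each list in each direction by size of difference, all members of the pairs, mitochondrial proteases and epididymis list, and the 10 genes with the largest range among testis arrays, of which the text gives a selection; others are said to be chosen after their values were seen. RefSeq promoters (GRCm38.p6) of 300 bases were matched by symbol for 13605 genes and searched on both strands. Alternatives covered the normalization, the probe set used, the filter on dim genes, the prior, weights, threshold, block and each array in turn. Same-numbered arrays were checked for pairing: the deviations from group means of testis and same-numbered other arrays correlated at -0.00 to 0.11, and in 0 of 10 pairs of tissues did all numbers exceed 0.1, so the numbers were not used as pairs. Muscle and heart came closest, at 0.1096, 0.0959 and 0.1201. This rule does not settle whether same-numbered arrays share an animal.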

Additional observations from a re-analysis of the deposited data

Results flagged for a closer look

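The 551 probe sets assigned to several genes took no part in the comparisons by gene. Of these, 52 (9.44%) were at least 1 higher in testis than in each of the 4 other tissues and 39 were at least 1 lower, by the same limma criteria; they could not be assigned to a single gene. They are given because they are a signal in data outside the main measurement.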

How the results depend on the processing

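Limits: values under 4 lie near the floor of the arrays, most differences above other tissues are lower bounds, and 1 probe set speaks for a gene. RMA fixes each array's distribution, so the split between higher and lower depends on the centring. For 32 counts over 954 alternatives, 926 stayed within 1.5 times the count given. Leaving out 1 array at a time gave 5154 to 5423 genes higher and 6392 to 6958 lower than the mean of 4 tissues, 3601 to 3755 and 4012 to 4203 by at least 1, 3484 to 3612 and 2065 to 2319 against all 4, 2642 to 2741 and 1092 to 1290 with a margin of at least 1, 84 to 100 X-linked genes below and 94 to 97 above, and 3 to 5 MHC class I genes below all 4 (5 without testis replicate 3, and 5 without it and muscle replicate 1 together, an alternative chosen after seeing the data). Arrays centred on genes with a mean of at least 6 gave 9504 genes higher, 2717 lower by at least 1, 5904 higher and 1416 lower than in all 4, and 714 lower with a margin of at least 1. Keeping the 8548 genes with an overall mean above the median leaves out genes high in testis alone by construction. It gave 2688 genes higher, 1706 by at least 1, 1462 higher than in all 4, 942 with a margin of at least 1, and 6 X-linked genes above. Members above all 4 were then 1 for spermatogonia, 6 meiotic, 2 round spermatid, 10 elongating spermatid, 3 Sertoli, 3 Leydig, 7 chromatin, 5 acrosome, 7 flagellum, 1 channel, 7 kinase, 10 glycolysis and mitochondrial, 8 piRNA, 5 transcription, 7 translation and 4 ubiquitin genes. With the replicate block 3584 genes were higher and 2270 lower than in all 4, and the block changed no call of a count beyond 1.5 times; as a random effect it gave 3589 and 2256. The mean of all probe sets of a gene gave 2525 and 810 genes with a margin of at least 1. Testis arrays correlated best with the array of their own number in 7 of 12 comparisons.

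For 202 of the genes named, 5829 of 5969 comparisons kept the side of the threshold and, where the gene was called, the direction. A change of sign in a gene called in neither fit was counted among these. Of the rest, 85 lost the call, 39 gained one and 16 changed sign with a call in at least 1 of the fits compared. Most of the lost calls were those of Lcn5, Gpx5, Adam7 and Cst11, also lost when arrays of other tissues were left out. Centring on genes with a mean of at least 6 changed the sign for Catsperg2 (0.37), Cfap47 (0.44), Eif2s3y (0.069), Htra2 (0.066), Piwil4 (0.42) and Rsph4a (0.30). The mean of all probe sets changed it for Afg3l1 (-0.42), Calr3 (2.82), Gpd2 (-0.88), Hipk3 (0.34), Pln (-1.02) and Yme1l1 (-0.38), and the probe set of largest variance for Calr3 (5.16), Gpd2 (-4.45), Hipk3 (4.05) and Pmpca (1.0).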

Other observations

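Several genes were high in testis and brain together and low in the 3 other tissues; the examples were chosen after their values were seen. Acsbg1, an acyl-CoA synthetase of brain and steroid-making cells, had 7.92, 7.67 and 8.07 in testis, against means of 8.44 in brain, 2.99 in liver, 3.17 in muscle and 3.16 in heart. Ddx25, a germ cell RNA helicase, had 11.02, 10.73 and 10.92 in testis, against means of 7.29 in brain, 3.20 in liver, 3.63 in muscle and 3.53 in heart. Clgn, an endoplasmic reticulum chaperone that sperm need, had 9.60, 9.52 and 9.50 in testis, against means of 6.34 in brain, 2.84 in liver, 3.19 in muscle and 2.98 in heart. Acsbg1 was lower in testis than in brain, while Ddx25 and Clgn were higher in testis by 3.61 and 3.20.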
